A study of Mus musculus with 12 samples.

Results

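This account covers 8 genes of arginine, nitric oxide, polyamine and itaconate metabolism in mouse macrophages: Slc7a2, Ass1, Arg1, Arg2, Nos2, Odc1, Sat1 and Acod1. They were taken by symbol, and all 8 were found among the 54582 symbols that both deposited count tables hold. RNA sequencing of polyA RNA had been done on primary bone marrow-derived macrophages, tibial per the labels, with a time entry of 6 to 8 weeks that is not explained further. The 12 libraries form 4 groups of 3. WT macrophages came from wild type mice and KO macrophages from mice described as Kif13b-/- in the design text and as a Kif13b knock down in the sample labels; both were kept in DMEM with serum. WT + AC and KO + AC are macrophages of the same genotypes after 90 min with apoptotic Jurkat cells (human leukaemic T cells) at 1 macrophage to 5 apoptotic cells. Serum was labelled 10, 10 and 11% in WT and 12, 13 and 14% in KO. These values step up through the sample list and may be a labelling error. If they are real, serum and genotype cannot be told apart there. The labels of the other groups give the co-culture in its place. The labels do not state whether replicate libraries are separate mice or cultures. The p-values therefore reflect library-to-library spread, which may be technical.

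Macrophages take up arginine through cationic amino acid transporters and spend it by competing routes. Nitric oxide synthase turns it into nitric oxide and citrulline, which argininosuccinate synthase and its partner lyase recycle to arginine, while arginase splits it into urea and ornithine. Ornithine decarboxylase then starts polyamine synthesis, and spermidine/spermine acetyltransferase tags polyamines for export or breakdown. Aconitate decarboxylase diverts a citric acid cycle intermediate to itaconate, a metabolite known from inflammatory macrophages that inhibits succinate dehydrogenase. Nos2 and Acod1 are textbook genes of the inflammatory state and Arg1 of the alternatively activated state.

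The start-site regions of the members differ in make-up, and 3 are shown because they differ in motifs and base composition. RefSeq windows (GRCm38.p6) from 250 bases before to 50 bases after the start were matched for 4 members, Acod1, Odc1, Ass1 and Sat1, and not for Arg1, Arg2, Nos2 and Slc7a2. The windows are Acod1 at chr14:103046762-103047061, Odc1 at chr12:17544623-17544922 and Ass1 at chr2:31470020-31470319, all on the plus strand. Capitals mark matches to the motifs searched.
Acod1: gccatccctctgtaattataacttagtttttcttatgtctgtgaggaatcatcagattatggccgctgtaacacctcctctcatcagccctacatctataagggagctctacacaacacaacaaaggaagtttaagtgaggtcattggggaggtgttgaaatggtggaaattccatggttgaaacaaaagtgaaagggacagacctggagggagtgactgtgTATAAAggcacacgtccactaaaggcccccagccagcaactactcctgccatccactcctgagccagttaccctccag
Odc1: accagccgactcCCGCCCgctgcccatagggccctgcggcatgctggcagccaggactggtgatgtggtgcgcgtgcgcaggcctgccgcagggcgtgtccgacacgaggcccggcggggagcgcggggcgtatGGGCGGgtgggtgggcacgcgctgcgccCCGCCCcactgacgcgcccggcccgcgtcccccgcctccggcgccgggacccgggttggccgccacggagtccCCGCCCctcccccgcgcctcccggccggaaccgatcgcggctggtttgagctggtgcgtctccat
Ass1: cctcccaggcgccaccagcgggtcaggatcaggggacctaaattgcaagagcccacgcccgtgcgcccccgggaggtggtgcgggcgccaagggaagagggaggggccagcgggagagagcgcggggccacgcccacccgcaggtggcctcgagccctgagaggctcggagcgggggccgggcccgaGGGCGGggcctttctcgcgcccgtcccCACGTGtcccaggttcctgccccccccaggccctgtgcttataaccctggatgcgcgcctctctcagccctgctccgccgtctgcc
A set of 9 motifs was searched on both strands. The TATA box was searched as TATAAA. The GC box, which many promoters of widely expressed genes carry, was searched as GGGCGG. The E-box, a site of basic helix-loop-helix factors, was searched as CACGTG. The AP-1 site of Fos and Jun proteins was searched as TGANTCA. The cyclic AMP response element (CRE) was searched as TGACGTCA and the gamma-activated site as TTCNNNGAA. The NF-kB, STAT6 and interferon-stimulated response elements are given by name alone. Acod1 held a TATA box at position -28 from the start and no GC box, with 47.0% G or C and 2 CG pairs. Odc1 held 4 GC boxes, 78.0% G or C and 42 CG pairs. Ass1 held an E-box at position -36, a GC box at -63, 74.0% G or C and 27 CG pairs. The Sat1 window (chrX:155216400-155216699, minus strand) held 2 GC boxes with 60.3% G or C. Among 32851 RefSeq windows of this length, 13.6% held the TATA box, 35.7% the GC box and 7.15% the E-box. None of the marked matches overlap another motif, and the other 6 patterns (AP-1 in 7.81% of all windows, CRE in 1.79%, NF-kB in 1.63%, gamma-activated site in 8.30%, STAT6 in 6.95%, interferon-stimulated response element in 3.44%) had no match in these 4 windows.

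Library totals were 18256622 to 18770757 counts for the macrophages alone and 17000976 to 17285594 after co-culture. Between 31787 and 32801 symbols were detected per library after co-culture, against 18335 to 18540 in macrophages alone, and each condition stands in its own deposited table, so condition and table cannot be told apart. Kif13b had 281 to 424 counts in KO and 535 to 599 in WT, but 1697 to 1721 in the libraries labelled KO + AC and 1561 to 1634 in WT + AC, which goes against the label. Directions given below for KO + AC therefore refer to the libraries so labelled. All 10 macrophage markers had counts in every library. Their summed level was 30340 to 38220 counts per 1000000 (CPM) without and 13060 to 16020 CPM with apoptotic cells. Lyz2 and Cd68 carried most of that sum and were lower with apoptotic cells. Fcgr1 was lower as well, at 156 and 201 CPM in WT and KO and 28.0 and 28.8 CPM in WT + AC and KO + AC. So was Mertk (72.0 and 73.1 against 43.4 and 44.4 CPM). Adgre1 was lower in WT (605 against 535 CPM) and higher in KO (519.5 against 627 CPM). Other markers were higher: Cd14 was at 157 and 127 against 709 and 901 CPM, and Csf1r at 580 and 553 against 784 and 914 CPM. Itgam was at 146 and 106 against 216 and 218 CPM, and Mrc1 at 251 and 165 against 300 and 296 CPM. T cell markers summed to 30.1 to 59.7 CPM without and 71.5 to 86.7 CPM with them. Without apoptotic cells Lat made up most of that sum, and it was lower with them (33.5 and 51.4 CPM in WT and KO against 17.2 and 14.4 CPM in WT + AC and KO + AC). Lck went the other way (0.751 and 1.01 against 26.1 and 22 CPM), as did Zap70 (0.102 and 0.112 against 21.3 and 21.7 CPM), and Cd3d averaged under 0.1 CPM in all 4 groups. Fibroblast markers summed to 616 to 762 CPM in WT, 859 to 1101 in KO, 379 to 418 in WT + AC and 258 to 279 in KO + AC, so they moved with genotype in both conditions, and their part in the results was not tested. The dendritic cell list summed to 3.37 to 5.16 CPM without and 14.7 to 16.7 CPM with apoptotic cells. Zbtb46 (2.75 and 3.42 CPM in WT and KO against 9.06 and 8.75 CPM) and Itgae (0.081 and 0.0656 against 4.31 and 3.60 CPM) made up most of the higher sum. Clec9a (0.286 and 0.568 against 0.0843 and 0.278 CPM) and Cd209a went the other way, both at under 1 CPM. The neutrophil list went from 36.5 to 41.8 CPM to 63.4 to 68.2 CPM. In the neutrophil list only Mmp8 accounts for the higher sum (18.5 and 15.9 CPM in WT and KO against 53.3 and 53.7 CPM), since S100a8 was lower with apoptotic cells (19.4 and 20.8 against 10.5 and 12.7 CPM) and the others averaged below 2 CPM. In bulk libraries, fewer cells of a type and less RNA per cell cannot be told apart. KO libraries 1 and 2 stood apart in a trend with exonic length (r across genes of -0.551 and -0.303 within their table, 0.237 to 0.395 in WT and 0.328 in KO 3).

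Per kilobase of exon, Sat1 was the most abundant member without apoptotic cells and Acod1 with them. In WT the order of mean levels was Sat1 (195 CPM per kb), Arg1 (59.5), Odc1 (24.4), Ass1 (8.96), Slc7a2 (1.79), Acod1 (1.53), Arg2 (0.756) and Nos2 (0.00468). Only the ranges of Slc7a2 and Acod1 overlapped between neighbours in that order. In KO the order was Sat1 (205 CPM per kb), Arg1 (30.7), Odc1 (27.8), Ass1 (8.85), Acod1 (1.38), Slc7a2 (0.976), Arg2 (0.245) and Nos2 (0.00973), and the neighbours Arg1 and Odc1, and Acod1 and Slc7a2, overlapped. With apoptotic cells Acod1 led at 537 CPM per kb in WT + AC and 717 in KO + AC, ahead of Sat1 at 225 and 259, and Slc7a2 was next at 47.0 and 43.8. The lower places were Odc1 (28.1), Arg1 (17.9), Ass1 (10.7), Arg2 (4.74) and Nos2 (0.288) in WT + AC, with no overlap between neighbours. In KO + AC they were Odc1 (26.9), Ass1 (15.4), Arg1 (15.04), Arg2 (6.14) and Nos2 (0.319), where Ass1 and Arg1 overlapped. Nos2 was last in all 4 groups.

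**Figure D1:**
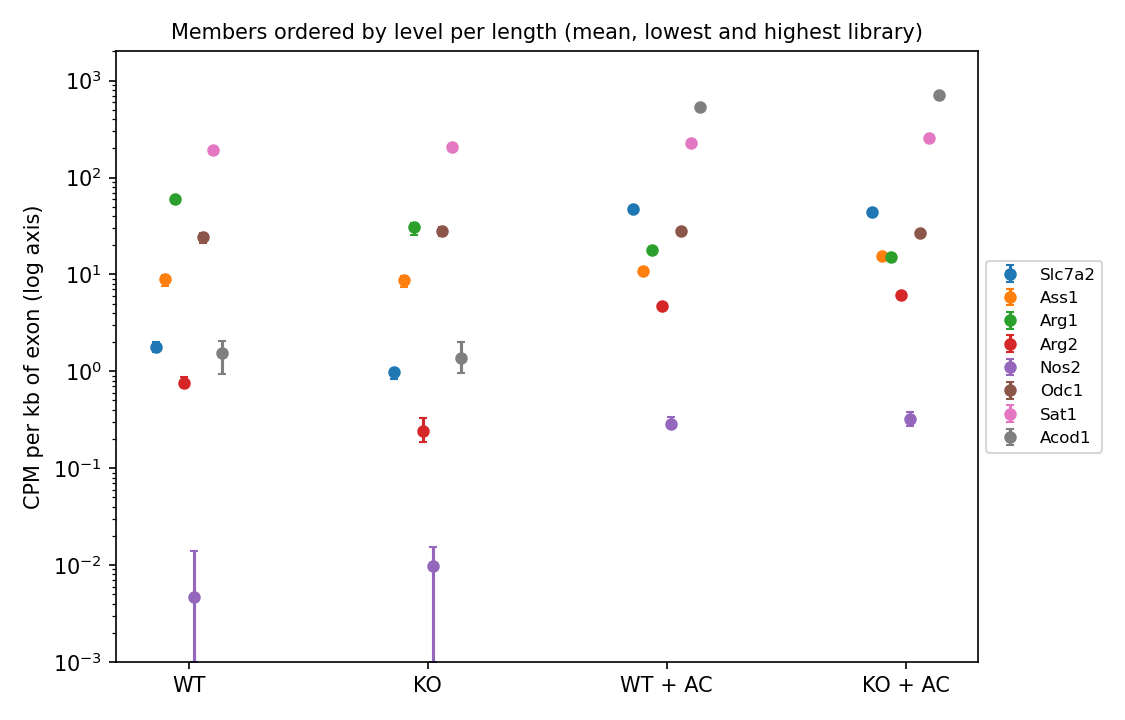
Mean level of each member per kilobase of exon (CPM per kb, log axis) in the 4 groups, with bars from the lowest to the highest of 3 libraries. Acod1 moves from 1.53 (WT) and 1.38 (KO) to 537 (WT + AC) and 717 (KO + AC), Nos2 is lowest throughout, and its bars without apoptotic cells run to the axis floor because some libraries had 0 counts.

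Without apoptotic cells, Arg1 and the transporter Slc7a2 were lower in KO. Arg2 was called lower as well, but on few counts and with a limit given below. The other members tested were not called. The mitochondrial share of counts also separated the genotypes there, at 1.42, 2.06 and 2.53% in WT and 1.12, 0.579 and 1.23% in KO, and its part in these results was not tested. Arg1, the cytosolic arginase (GRCm38 chromosome 10, 24915221 to 24927484, minus strand), had 1110, 1095 and 932 counts in KO and 2322, 2244 and 1955 in WT. The highest KO library lay well below the lowest WT library. At 59.0 ± 8.96 CPM against 114 ± 8.23 (SD, n = 3 each), Arg1 fell by 0.95 on the log2 scale (SE 0.13, edgeR adjusted p = 7.71e-05). Slc7a2 encodes a cationic amino acid transporter for arginine (chromosome 8, 40862396 to 40922308, plus strand). Its libraries had 112, 141 and 159 counts in KO and 267, 238 and 299 in WT. These groups did not overlap either. Slc7a2 was at 7.68 ± 0.974 CPM against 14.1 ± 1.75 and fell by 0.87 (SE 0.16, edgeR adjusted p = 0.00154). Arg2 encodes the mitochondrial arginase (chromosome 12, 79130777 to 79156301, plus strand). Its libraries had only 7, 4 and 5 counts in KO and 17, 16 and 20 in WT. It fell by 1.61 (SE 0.39, edgeR adjusted p = 0.0108), but it passed the filter on low counts only through WT. In this comparison 16.2% of the 12640 genes tested were called, 8.24% lower, and the groups did not overlap for 33.6%, beside 3 members called lower and 0 higher (background 7.94%) of 7 tested. Of these 3, Arg2 entered the test only through WT, so its call is not used as support.

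Ass1 encodes argininosuccinate synthase (chromosome 2, 31470207 to 31520672, plus strand). It had 341, 345 and 293 counts in KO and 393, 301 and 370 in WT, so the groups overlapped (log2 -0.02, SE 0.15, edgeR adjusted p = 0.951). Odc1 encodes ornithine decarboxylase (chromosome 12, 17544794 to 17551505, plus strand). It had 1384, 1552 and 1407 counts in KO and 1194, 1401 and 1478 in WT, again with overlap (log2 0.19, SE 0.13, edgeR adjusted p = 0.305). Sat1, the acetyltransferase of polyamine breakdown (chromosome X, 155213132 to 155216449, minus strand), had 8917, 8337 and 8835 counts in KO and 8314, 9039 and 9170 in WT (log2 0.07, SE 0.13, edgeR adjusted p = 0.709). The groups overlapped for both polyamine genes. Acod1, the itaconate-forming enzyme (chromosome 14, 103046977 to 103056573, plus strand), varied more between libraries of 1 group than the other members tested, with 78, 38 and 49 counts in KO and 90, 40 and 68 in WT (log2 -0.16, SE 0.28, edgeR adjusted p = 0.713). Its coefficient of variation was 36.9% in WT and 40.9% in KO. Nos2 encodes the inducible nitric oxide synthase (chromosome 11, 78920787 to 78960254, plus strand). It had 1, 0 and 1 counts in KO and 0, 0 and 1 in WT and was not tested. The CPM ratio of KO to WT for Nos2 was 2.13, with a 95% exact binomial interval of 0.111 to 126 that covers counting error only.

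The fall of Arg1 was called in each of its 14 alternatives, at log2 -1.23 to -0.87. With KO libraries 1 and 2 both left out, Arg1 was the 1 member still called (log2 -1.23, edgeR adjusted p = 0.000616, range over the alternatives 6.3e-11 to 0.0022), while Slc7a2 was at -0.76 (edgeR adjusted p = 0.0941, range 7.24e-06 to 0.0941) and Arg2 at -1.80 (edgeR adjusted p = 0.248, range 0.00145 to 0.248). The call of Arg2 also ended without WT library 3 (edgeR adjusted p = 0.0648), and DESeq2 gave no adjusted p for it. Arg2 shares 285 exonic bases with the opposite-strand gene Vti1b, and the strand setting of the counting is not given in the sources used here. Vti1b had 2158 to 2178 counts in WT and 2418 to 2772 in KO (log2 0.36), the opposite direction to Arg2. Slc7a2 shares 635 exonic bases with the antisense gene Gm26584, which was not analysed here.

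**Figure D2:**
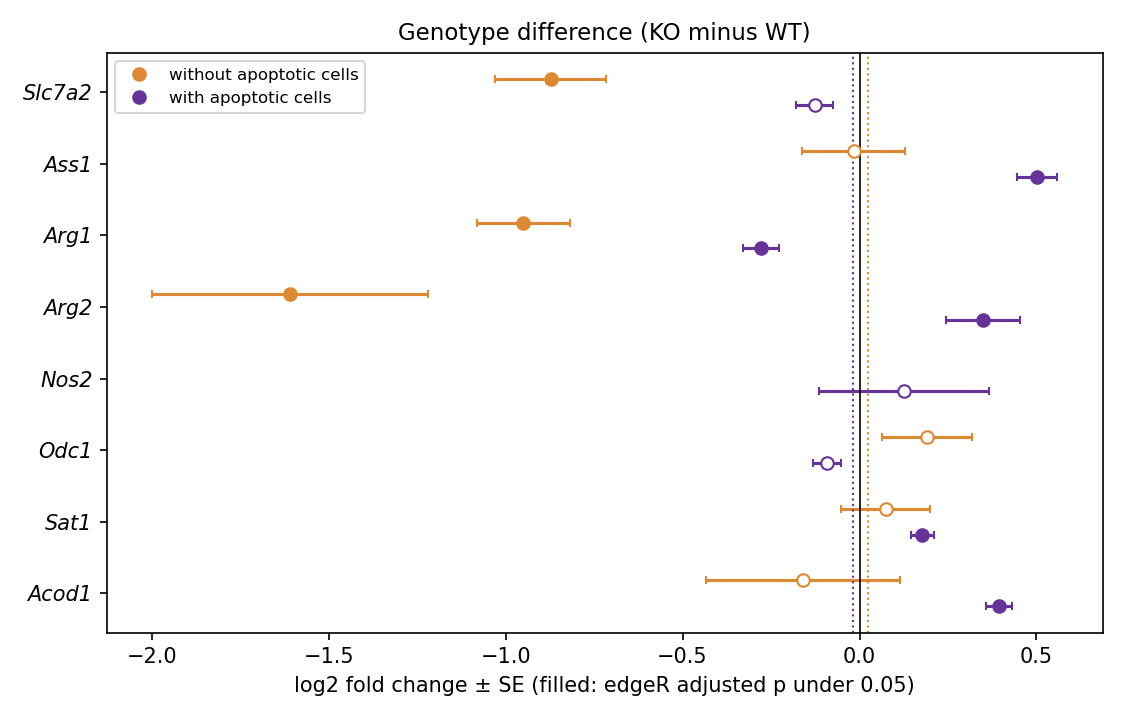
Log2 fold change of KO over WT with its standard error for each member, without (orange) and with (purple) apoptotic cells, each fitted in its own table. Filled points were called, open points were not, and dotted lines mark the median of all genes tested; Slc7a2, Arg1 and Arg2 lie at or below -0.87 without apoptotic cells, and Ass1, Arg2, Sat1 and Acod1 lie above 0 with them.

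With apoptotic cells, Acod1, Ass1, Arg2 and Sat1 were higher and Arg1 was lower in the libraries labelled KO + AC. Acod1 had 36305, 35440 and 36443 counts in KO + AC and 27926, 26350 and 29993 in WT + AC. The lowest KO + AC library was above the highest WT + AC library. At 2132 ± 31.0 CPM against 1622 ± 113, Acod1 was higher by 0.39 on the log2 scale (SE 0.04, edgeR adjusted p = 8.92e-11). Ass1 had 738, 708 and 698 counts in KO + AC and 470, 530 and 551 in WT + AC, with no overlap. It was at 42.3 ± 1.46 CPM against 29.8 ± 2.14 (log2 0.50, SE 0.06, edgeR adjusted p = 3.48e-09). Arg1 was again lower, with 646, 635 and 645 counts in KO + AC and 788, 826 and 778 in WT + AC (38.0 ± 0.408 against 46.0 ± 1.16 CPM, log2 -0.28, SE 0.05, edgeR adjusted p = 7.34e-05).

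Arg2 had 171, 178 and 155 counts in KO + AC and 140, 136 and 129 in WT + AC, so it was higher where it had been lower without apoptotic cells (log2 0.35, SE 0.10, edgeR adjusted p = 0.0196). Sat1 had 13668, 14187 and 13428 counts in KO + AC and 12471, 12613 and 12290 in WT + AC, a small difference without overlap (log2 0.18, SE 0.03, edgeR adjusted p = 8.42e-05). Slc7a2, at 8014, 7833 and 7133 counts in KO + AC and 8911, 8012 and 8756 in WT + AC, overlapped and was not called (log2 -0.13, SE 0.05, edgeR adjusted p = 0.163). It was called without WT + AC library 2 (log2 -0.18, edgeR adjusted p = 0.00146, range over the alternatives 0.00146 to 0.831). Odc1 had 1814, 1720 and 1723 counts in KO + AC and 1920, 1876 and 1939 in WT + AC. The highest KO + AC count lay below the lowest WT + AC count, yet the CPM ranges overlapped after scaling and the gene was not called (log2 -0.09, SE 0.04, edgeR adjusted p = 0.142). Nos2 had 32, 23 and 26 counts in KO + AC and 29, 23 and 24 in WT + AC (log2 0.13, SE 0.24, edgeR adjusted p = 0.819), so the groups overlapped.

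In this comparison 11.3% of the 16467 genes tested were called, 6.58% higher and 4.75% lower, beside 4 members higher and 1 lower of 8 tested. The groups did not overlap in CPM for 26.4% of all genes tested. Of all calls 58.0% were higher, against 72.2% with DESeq2 and 70.0% with offsets for length and GC content. The spread between libraries was small here, with a biological coefficient of variation, as edgeR names it, of 0.0294 against 0.117 without apoptotic cells. Replicate pairs here had a chi-square per degree of freedom of 1.4 to 1.93, where counting error alone gives about 1. Without apoptotic cells it was 4.96 to 35.5. The small adjusted p-values therefore rest on replicates that differed little beyond counting error. When the larger spread of all 12 libraries was used in 1 joint fit, 1 member stayed called, Ass1 (edgeR adjusted p = 0.0094, range over its alternatives 7.85e-16 to 0.0094). Acod1 was then at log2 0.42 (edgeR adjusted p = 0.221), Arg1 at -0.25 (edgeR adjusted p = 0.35), Arg2 at 0.37 (edgeR adjusted p = 0.221) and Sat1 at 0.20 (edgeR adjusted p = 0.386). The call of Arg2 also ended without WT + AC library 2 (edgeR adjusted p = 0.0554) or 3 (0.0798), without KO + AC library 1 (0.0817) or 2 (0.119) and with DESeq2 (0.0786).

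**Figure D3:**
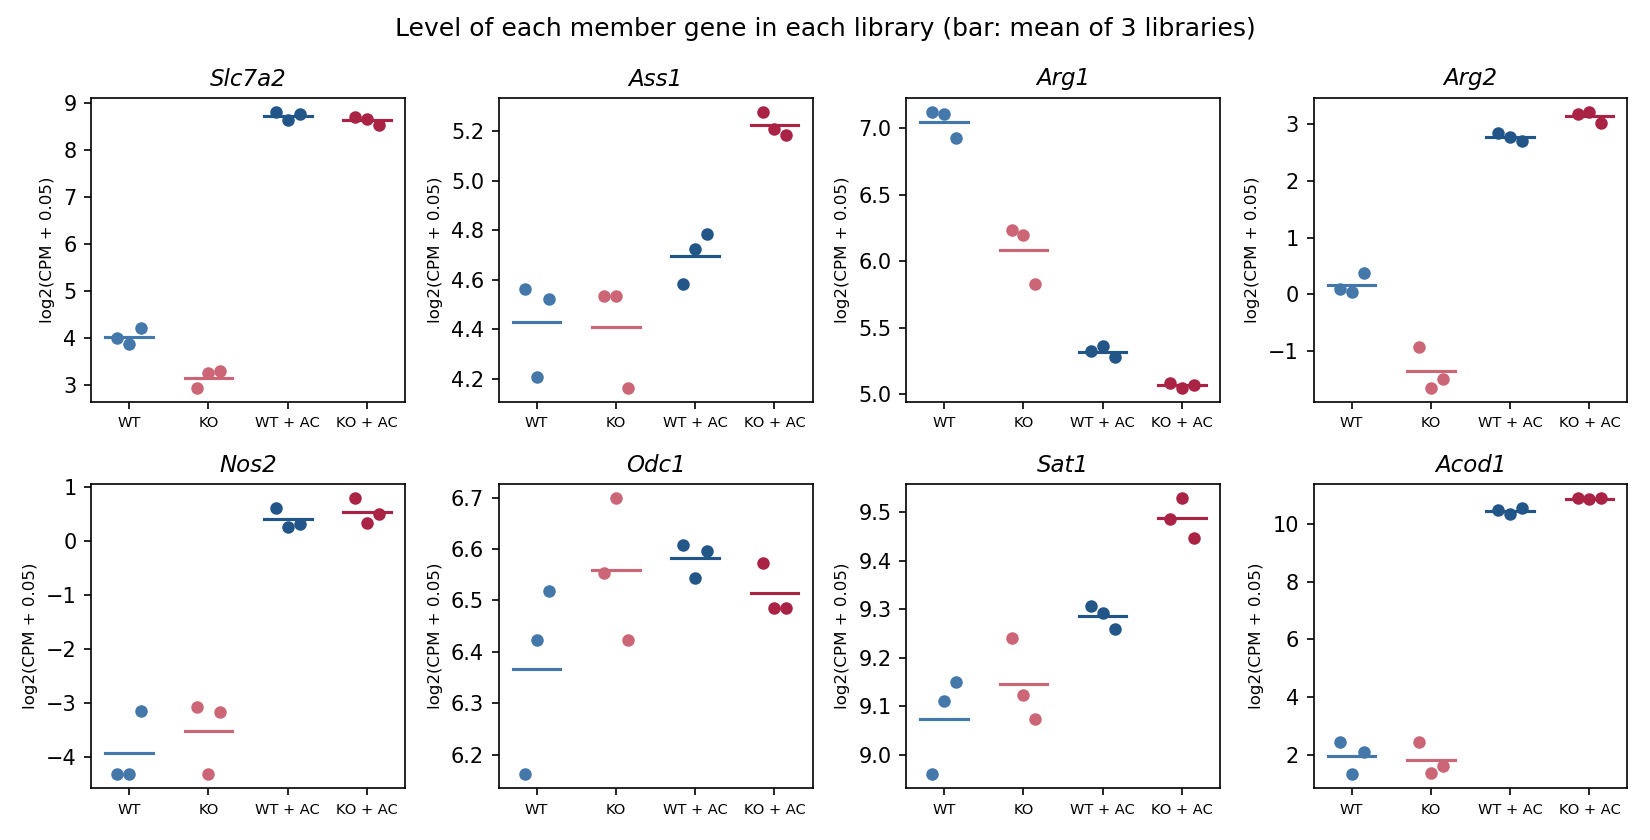
Level of each member in each of the 12 libraries as log2(CPM + 0.05) on the scale of the joint fit, with a bar at the mean of 3 libraries per group; each panel has its own vertical range. Slc7a2, Arg2, Nos2 and Acod1 sit far higher in all 6 libraries with apoptotic cells, Arg1 sits lower, and Odc1 spans less than 1 log2 unit over all libraries.

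Against macrophages without apoptotic cells, Acod1 and Slc7a2 were higher and Arg1 was lower in both genotypes, and Arg2 was higher in WT. Arg2 counts in KO and Nos2 counts in both genotypes were higher as well, with limits given below. Odc1, Sat1 and, in WT, Ass1 lay within 0.37 of the median gene on the log2 scale before any offset for length and GC content. Acod1 went from 2.45 to 5.39 CPM over the WT libraries to 1310 to 1495 CPM over the WT + AC libraries, and from 2.54 to 5.29 CPM in KO to 1845 to 1905 CPM in KO + AC. No library of one condition came near the other. The fold change was 349 in WT (log2 8.45, SE 0.20, edgeR adjusted p = 1.47e-18) and 523 in KO (log2 9.03, SE 0.21, edgeR adjusted p = 6.79e-19). Acod1 alone held 0.157 to 0.216% of the counts with apoptotic cells. T cell markers moved with the condition, as given above, and their part in these results was not tested.

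Slc7a2 went from 14.6 to 18.5 CPM in WT to 398 to 453 CPM in WT + AC, and from 7.60 to 9.70 CPM in KO to 371 to 421 CPM in KO + AC. It rose 26.2-fold in WT (log2 4.71, SE 0.11, edgeR adjusted p = 1.89e-23) and 44.7-fold in KO (log2 5.48, SE 0.12, edgeR adjusted p = 3.4e-24). The difference between genotypes called without apoptotic cells was not called with them. Arg1 fell by 1.73 on the log2 scale in WT, from 133 ± 9.90 to 40.0 ± 1.14 CPM (SE 0.10, edgeR adjusted p = 3.11e-15). In KO it fell by 1.03, from 68.5 ± 10.1 to 33.5 ± 0.42 CPM (SE 0.10, edgeR adjusted p = 1.94e-10). With offsets for length and GC content the falls were -0.95 (edgeR adjusted p = 3.74e-12) and -0.19 (edgeR adjusted p = 0.0231), over ranges of 4.03e-69 to 3.74e-12 and 8.87e-27 to 0.0231, so the size of the fall depended on that correction. Arg2 rose from 1.08 ± 0.14 to 6.77 ± 0.34 CPM in WT (6.24-fold, log2 2.64, SE 0.18, edgeR adjusted p = 2.18e-13) and from 0.349 ± 0.111 to 8.77 ± 0.631 CPM in KO (24.8-fold, log2 4.63, SE 0.23, edgeR adjusted p = 8.93e-17). In KO without apoptotic cells Arg2 had only 7, 4 and 5 counts and did not meet the filter there. Its call in KO is therefore not used as support. The overlapping Vti1b fell by 1.26 and 1.56 on the log2 scale, the opposite direction.

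The balance of the 2 arginases changed with these opposite moves. Per kilobase of exon, Arg1 was 62.7 to 89.9 times as abundant as Arg2 in the WT libraries and 102 to 175 times in KO. With apoptotic cells the ratio was 3.61 to 3.89 in WT + AC and 2.29 to 2.67 in KO + AC. The 4 groups did not overlap in this ratio. Without apoptotic cells it divides by only 4 to 7 Arg2 counts per library in KO and 16 to 20 in WT. The separation of KO from WT there is therefore not used as support.

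Nos2 rose from 1 count over the 3 WT libraries to 76 over the 3 WT + AC libraries and from 2 in KO to 81 in KO + AC. The CPM ratio was 62.4 in WT (95% exact binomial interval 10.9 to 2500) and 32.5 in KO (8.7 to 273), with counting error only. Both differences met the threshold (edgeR adjusted p = 3.85e-09 in WT and 5.05e-09 in KO), but the gene passed the filter only through the libraries with apoptotic cells. The Nos2 calls are therefore not used as support. The level reached, 1.27 ± 0.177 and 1.41 ± 0.246 CPM, was low, and those of the other nitric oxide synthases were low as well. Like Nos2, Nos1 and Nos3 passed the filter only through the libraries with apoptotic cells, so their calls are not used: Nos1 had no count in the 6 libraries without and 0.719 and 0.313 CPM in WT + AC and KO + AC, and Nos3 went from 0.0603 and 0.102 to 1.15 and 1.18 CPM. Of 4743 symbols with 1 to 3 counts over the WT libraries, 9.09% had at least 23 counts, the lowest Nos2 count, in every WT + AC library, and of 4635 such symbols in KO it was 9.15%.

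Ass1 was at 21.6 ± 2.80 CPM in WT and 25.9 ± 1.84 in WT + AC (log2 0.26, SE 0.11, edgeR adjusted p = 0.0312). In KO it rose from 21.4 ± 3.03 to 37.3 ± 1.28 CPM (log2 0.81, SE 0.11, edgeR adjusted p = 1.34e-07). Sat1 went from 540 ± 36.9 to 624 ± 10.7 CPM in WT (log2 0.21, SE 0.08, edgeR adjusted p = 0.0202) and from 567 ± 34.2 to 718 ± 20.3 CPM in KO (log2 0.34, SE 0.08, edgeR adjusted p = 0.000426). Odc1 was at 83.0 ± 10.3 and 95.8 ± 2.24 CPM in WT and WT + AC (log2 0.21, SE 0.09, edgeR adjusted p = 0.0397) and at 94.5 ± 9.05 and 91.4 ± 3.25 CPM in KO and KO + AC (log2 -0.05, SE 0.09, edgeR adjusted p = 0.634). The median of all genes tested was itself at 0.25 in WT and 0.32 in KO, or 0.36 and 0.41 with DESeq2 size factors. Relative to that median, Ass1, Sat1 and Odc1 stood at 0.01, -0.04 and -0.04 in WT and at 0.49, 0.02 and -0.37 in KO, so a direction for Odc1 and Sat1 depends on the scaling. With offsets for length and GC content all 3 were called and stood further above the medians of 0.23 (WT) and 0.28 (KO), with Ass1 at 0.75 and 1.54, Sat1 at 0.96 and 0.96 and Odc1 at 0.61 and 0.50.

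In these comparisons 85.0% (WT) and 86.3% (KO) of the 16810 genes tested were called, 48.3% higher and 36.7% lower in WT and 49.6% higher and 36.7% lower in KO, and the groups did not overlap for 86.6% and 86.7%. The totals of 8 members called in WT and 7 in KO are near that background. By direction, 7 were higher and 1 lower in WT, and 6 higher and 1 lower in KO. The share called higher was thus above that of all genes, a difference that was not tested. Both totals include Nos2, which entered the test only through the libraries with apoptotic cells. The total in KO also includes Arg2, which did not meet the filter in KO without apoptotic cells. The count in WT was 5 without WT + AC library 2, where Ass1 (edgeR adjusted p = 0.0785, range 1.13e-08 to 0.265), Sat1 (0.0568, range 7.64e-15 to 0.105) and Odc1 (0.0586, range 1.65e-07 to 0.228) lost their calls.

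**Figure D4:**
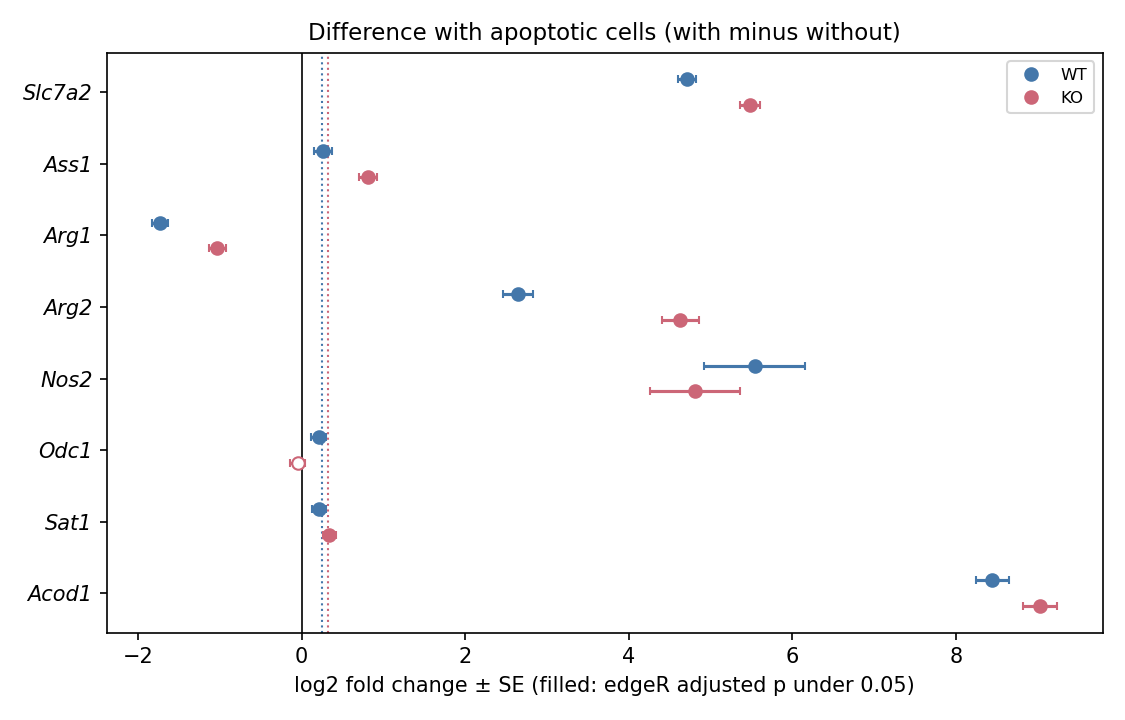
Log2 fold change with over without apoptotic cells and its standard error for each member in WT (blue) and KO (red), from the joint fit of 12 libraries. Filled points were called and the open point was not; dotted lines at 0.25 and 0.32 mark the median of all genes tested, next to which Odc1, Sat1 and WT Ass1 lie, while Acod1 reaches 8.45 and 9.03 and only Arg1 lies below -1.

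Whether the response to apoptotic cells differed between the genotypes was tested as the interaction in the joint fit. Of the 8 members, 4 were called, all with a more positive change in KO, where 12.7% of the 16810 genes tested were called 7.55% in that direction and 5.13% in the other. Arg2 differed by 1.99 (SE 0.36, edgeR adjusted p = 0.000842), with a rise of 2.64 in WT and 4.63 in KO, but this value rests on 16 counts over the 3 KO libraries and 53 over WT. The interaction call of Arg2 is therefore not used as support. Slc7a2 differed by 0.77 (SE 0.15, edgeR adjusted p = 0.00166) and Arg1 by 0.70 (SE 0.14, edgeR adjusted p = 0.00168), where Arg1 fell by 1.73 in WT and by 1.03 in KO. These 3 genes are the ones that were lower in KO without apoptotic cells, and both comparisons share those 6 libraries. Ass1 differed by 0.55 (SE 0.16, edgeR adjusted p = 0.0202) without such a starting difference in the main fit. With length and GC offsets, Ass1 was at -0.28 in KO against WT without apoptotic cells (edgeR adjusted p = 0.128) and the interaction was 0.79. The interaction call of Ass1 ended without WT library 1 (edgeR adjusted p = 0.0844), WT library 3 (0.0639), WT + AC library 1 (0.0717) or KO + AC library 1 (0.0611), over a range of 9.75e-05 to 0.0844. Acod1 (log2 0.58, SE 0.28, edgeR adjusted p = 0.191), Odc1 (-0.26, SE 0.13, edgeR adjusted p = 0.211), Sat1 (0.13, SE 0.12, edgeR adjusted p = 0.516) and Nos2 (-0.73, SE 1.30, edgeR adjusted p = 0.805) were not called. Acod1 was called without WT library 2 (0.84, edgeR adjusted p = 0.0313) and without KO library 1 (0.92, edgeR adjusted p = 0.0271), over a range of 0.0271 to 0.625, and Odc1 without KO library 3 (-0.32, edgeR adjusted p = 0.04, range 0.04 to 0.672).

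The wider pathways were read without offsets for length and GC content. Those offsets moved several members in the difference with apoptotic cells, so the list values below hold only for the fit without them. The list genes were not refitted under the other alternatives either. Over all genes, the 2045 genotype calls without apoptotic cells became 312 to 4166 leaving out 1 library. The 1866 with apoptotic cells became 157 in the joint fit, so small genotype differences in these lists depend on the fit used. The genes came from 5 further lists. Their counts are to be read against the shares of all genes called, which were 48.3% higher and 36.7% lower with apoptotic cells in WT, 49.6% and 36.7% in KO, 16.2% between genotypes without and 11.3% with apoptotic cells, and 12.7% in the interaction. Of 30 genes of arginine uptake, the urea cycle and arginine use, 24 were tested for the difference with apoptotic cells, 8 rose and 13 fell in WT (median log2 -0.29 against 0.25 over all genes), and 5 rose and 12 fell in KO (median -0.40 against 0.32). Over all genes 85.0% and 86.3% were called, so the number called in this list was near or below the background. Slc7a1, the other main cationic amino acid transporter of macrophages, rose as Slc7a2 did, from 9.60 ± 0.315 to 51.7 ± 1.70 CPM in WT (log2 2.43) and with a log2 of 2.55 in KO. Asl, the lyase that follows Ass1, fell where Ass1 did not (log2 -0.99 in WT and -1.25 in KO). Oat, which takes ornithine towards proline and glutamate, fell (-1.30 and -1.20), as did Gatm, which draws arginine into creatine synthesis (-1.68 and -2.23), and Ckb, the brain-type creatine kinase (-1.41 and -2.84). Between genotypes, 4 of 23 tested genes of this list were higher and 2 lower in KO without apoptotic cells, among them Ckb (log2 1.12, 877 against 404 CPM), Aldh18a1 (0.49) and Asl (0.41) higher. With apoptotic cells 1 of 23 was higher, Slc3a2 (0.14), and 4 were lower, among them Gatm (-0.54) and Ckb (-0.33). The interaction was called for 7 of 24, with Ckb at -1.43, Gatm at -0.55 and Aldh18a1 at -0.64.

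In the list of nitric oxide synthesis and its cofactor tetrahydrobiopterin, 6 of 21 tested genes rose and 11 fell in WT with apoptotic cells (median log2 -0.21 against 0.25 over all genes), and 5 rose and 12 fell in KO (median -0.63 against 0.32), beside 85.0% and 86.3% of all genes called. Cofactor enzymes were among the falls: Spr, sepiapterin reductase (-2.36 in WT and -2.68 in KO), Qdpr, which recycles the cofactor (-1.77 and -2.08), and Pts (-1.51 and -1.41). Gch1, the first and rate-limiting enzyme of the cofactor, was not called (0.07 and 0.01), while it was higher in KO + AC than in WT + AC (log2 0.25, 84.1 ± 1.79 against 70.8 ± 3.23 CPM). Por was also higher there (0.15), giving 2 of 22 higher. The 1 gene called lower was Nos1, at under 1 CPM, and that call is not used. Without apoptotic cells 3 of 15 were higher in KO and 0 lower, Ddah2 (0.79) and Ddah1 (1.02), which break down inhibitory methylarginines, and the calmodulin gene Calm3 (0.39). The interaction was called for Ddah2 (-0.82) and Calm3 (-0.44) and no other gene of the 21.

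Of 22 tested genes of polyamine synthesis, turnover and use, 2 rose and 13 fell in WT with apoptotic cells (median log2 -0.55 against 0.25 over all genes), and 6 rose and 15 fell in KO (median -0.79 against 0.32). Over all genes 48.3% rose and 36.7% fell in WT, and 49.6% and 36.7% in KO. Oaz1, the antizyme that targets ornithine decarboxylase for degradation, fell from 945 ± 67.3 to 256 ± 4.42 CPM in WT (log2 -1.89 in WT and -2.22 in KO), while Odc1 itself stayed near the median gene. Azin1, which restrains antizyme, was not called in WT (-0.04) and rose in KO (0.52). Paox, a polyamine oxidase, fell (-2.28 and -2.31), Mat2b fell (-1.53 and -1.48) and Atp13a3, a polyamine transporter, rose (1.41 and 2.03). Srm, spermidine synthase, was not called in WT (-0.15) and fell in KO (-0.58). Without apoptotic cells 4 of 22 were higher in KO, among them Ahcy (0.54) and Oaz1 (0.44), and 4 lower, among them Azin1 (-0.55) and Atp13a3 (-0.55). Amd2 was also lower (-3.79), but it is a near copy of Amd1, so its counts are uncertain. With apoptotic cells 1 of 21 was higher, Atp13a2 (0.14), and 4 were lower, among them Mtap (-0.39), Srm (-0.21) and Amd1 (-0.16). The interaction was called for 7 of 22, among them Ahcy (-0.63), Atp13a3 (0.63), Eif5a2 (0.87) and Amd2 (3.74).

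Around itaconate, the citrate and succinate steps mostly fell while Acod1 rose: 4 of 27 tested genes rose and 22 fell in WT with apoptotic cells (median log2 -0.90), with 4 and 22 also in KO (median -0.82), where over all genes 48.3% rose and 36.7% fell in WT and 49.6% and 36.7% in KO. Idh1, cytosolic isocitrate dehydrogenase, fell from 461 ± 26.1 to 88.7 ± 1.35 CPM in WT (log2 -2.38) and by 2.02 in KO. Sdhb, a subunit of succinate dehydrogenase, fell (-1.70 and -2.03), as did Suclg1 (-1.57 and -1.76) and Auh (-1.85 and -2.13). Clybl, which acts in itaconate breakdown, fell by 1.30 and 1.51. Between genotypes few were called: Slc25a10 (0.42) without apoptotic cells, and Rab32 (0.24) and Idh2 (-0.13) with them, of 26 tested each. The interaction was called for Rab32 (0.55), Idh1 (0.36) and Slc25a11 (-0.37) of 27.

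Of the regulators known to act on the member genes, 12 of 25 tested rose and 11 fell in WT with apoptotic cells, and 9 rose and 11 fell in KO (medians 0.06 and -0.02). The count of 12 higher is at the background of 48.3%. Nfkb1 (3.30 and 3.79) and Irf1 (2.40 and 2.72), which act on Nos2 and Acod1, rose, and Irf8 (-2.0 and -2.23) and Atf3 (-1.79 and -1.92) fell. Hif1a, a regulator of Nos2 and arginine metabolism under inflammation or low oxygen, rose by 1.31 in WT and 2.11 in KO. It was lower in KO without apoptotic cells (-0.57) and higher in KO + AC (0.20), with an interaction of 0.80 (edgeR adjusted p = 0.000963). Irf1 (0.34), Rela (0.33) and Nfkb1 (0.28) were higher and Epas1 lower (-0.38) in KO + AC, among 7 of 26 higher and 2 lower. Stat6, which drives Arg1 under interleukin 4, did not differ between genotypes (0.03 without and 0.05 with apoptotic cells, neither called).

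**Figure D5:**
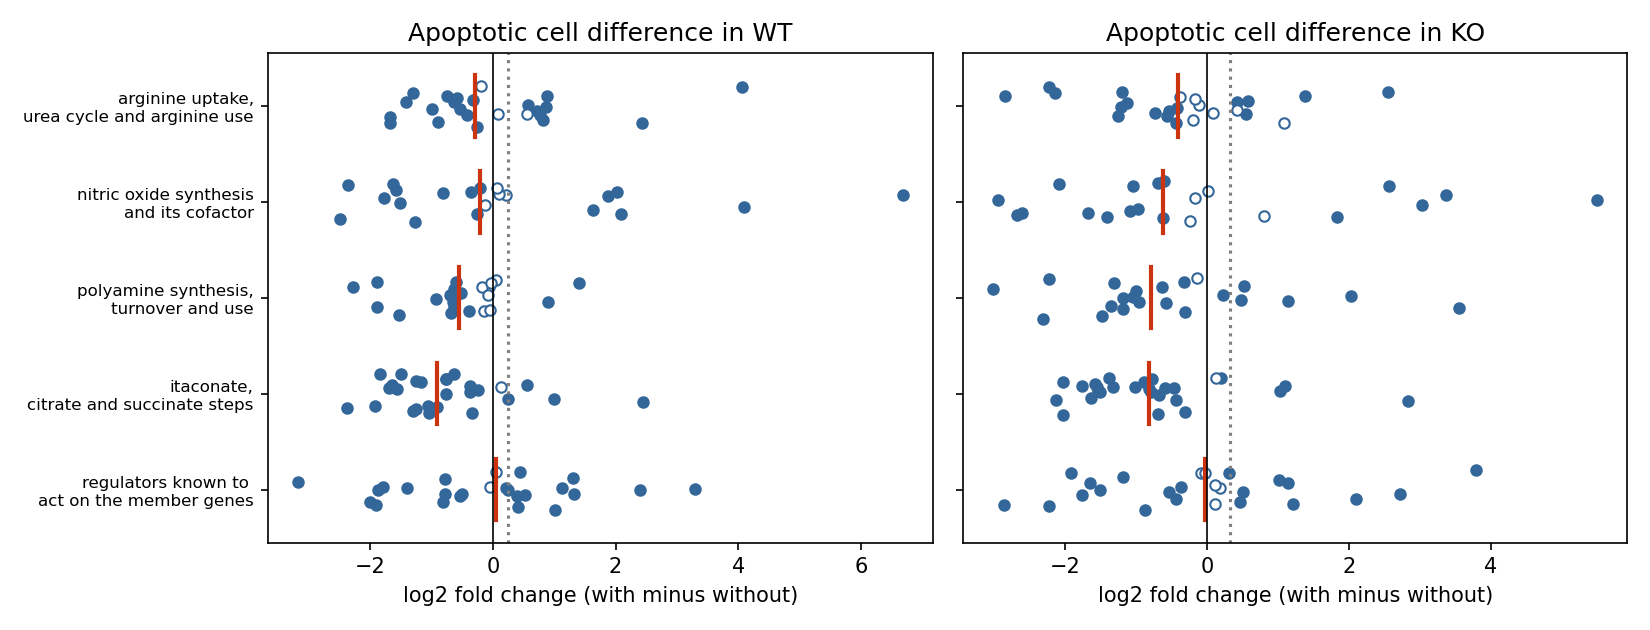
Log2 fold change with over without apoptotic cells for each tested gene of the 5 pathway lists in WT (left) and KO (right); filled points were called, red bars are list medians and the dotted line is the median of all genes tested. The itaconate, citrate and succinate list has its median at -0.90 and -0.82, below the median of all genes at 0.25 and 0.32.

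For each member the genes most like it over the 12 libraries were taken by Pearson's r of log2(CPM + 0.5) among 10241 genes averaging 2 CPM or more. All 12 points share the split by condition, which sets most of these values, so r is a description. Acod1 was most like Gbp5 (0.999), Pvr (0.999) and the NF-kB inhibitor Nfkbia (0.999), with 354 genes above 0.99. Slc7a2 was most like Slc7a8, another amino acid transporter (0.999), Rasgef1b (0.999) and Dvl3 (0.998), with 412 genes above 0.99. Arg2 was most like Spryd7 (0.997), Abi1 (0.996) and Camk2d (0.996), and Nos2 like Rhof (0.995), Xkr8 (0.995) and Il15ra (0.994). Arg1 was most like Slc41a3 (0.978), which went from 26.5 and 17.6 CPM in WT and KO to 12.1 and 10.6 CPM with apoptotic cells, followed by Krt8 (0.97) and Nck2 (0.967). Ass1 was most like haptoglobin Hp (0.94), which was at 20.4 CPM in WT + AC and 41.6 in KO + AC, then Cln3 (0.931) and Mcemp1 (0.925). Sat1 was most like Sbds (0.952), Snx11 (0.935) and Slc31a2 (0.925). Odc1 had the weakest likeness, to Ubxn11 (0.803), Gss (0.799) and Cd24a (0.72).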

How the data were processed

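The deposited values are raw read counts per gene symbol that the authors gave in 2 tables, one for the 6 libraries without and one for the 6 with apoptotic cells. Per the submitters' processing notes, fastp, HISAT2 2.0.5, DESeq2 1.20.0 and the mm10 build were used, while for the counting tool, the annotation and the strand setting the sources used here give nothing. Groups came from the sample titles and labels. KO and WT were compared within each table with edgeR 4.0.16 (R 4.3.3; filterByExpr, TMM scaling, robust quasi-likelihood test, Benjamini-Hochberg adjustment, called at an adjusted p under 0.05). The difference with apoptotic cells and the interaction came from a joint fit of 12 libraries over 54582 shared symbols, and CPM in those comparisons are on its scale. Levels per kb used the union exon length of GENCODE vM21 (GRCm38). The code was tested on simulated data.

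The 8 members and all gene lists were chosen with earlier results of these data known. All members are named, with up to 4 called genes of smallest p per list and comparison and direct partners of a member. Stat6 and other genes that fall outside this rule in a comparison were chosen after their values were seen. Depth was 17000976 to 18770757 counts per library, and intervals cover counting error only. DESeq2 1.42.0, its size factors, limma 3.58.1, no filter, length and GC offsets, a replicate block, other sets of libraries in the fit and leaving out libraries were tried as alternatives. A few genes that this rule names are not reported here.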

Additional observations from a re-analysis of the deposited data

Results flagged for a closer look

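The difference between KO and WT was itself different with and without apoptotic cells for 4 of the 8 genes, by the interaction term of the joint edgeR fit, where 12.7% of the 16810 genes tested were called and 7.55% in this direction. The KO change with apoptotic cells minus the WT change was 1.99 for Arg2, 0.771 for Slc7a2, 0.699 for Arg1 and 0.546 for Ass1 on the log2 scale, all more positive in KO. KO library values without apoptotic cells enter each of these differences. The value for Arg2 rests there on 16 counts over the 3 KO libraries and 53 over WT, so its call is not used as support. With KO libraries 1 and 2 left out, the value for Ass1 was 0.79, and Ass1 was then at -0.28 in KO against WT without apoptotic cells. The edgeR adjusted p of the Ass1 interaction ran from 9.75e-05 to 0.0844 over the alternatives. Kif13b was higher, not lower, in the libraries labelled KO + AC, so these directions are those of the libraries so labelled.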

How the results depend on the processing

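Of the single-gene results under alternatives, 521 kept their direction and side of the threshold, 31 lost a call, 7 gained one and 11 changed sign. The number of members called without apoptotic cells was 1 in place of 3 without KO libraries 1 and 2. With apoptotic cells KO against WT gave 1 in place of 5 in the joint fit of 12 libraries, and the apoptotic cell difference in WT gave 5 in place of 8 without the filter on low counts. Leaving out 1 library at a time gave 2 to 3 members, 4 to 5 members, 5 to 8 (apoptotic cells in WT), 7 to 7 (in KO) and 3 to 5 (interaction).

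For KO against WT without apoptotic cells, Sat1 was at -0.0069 without KO libraries 1 and 2, and leaving out 1 library at a time put Ass1 at -0.119 to 0.057 (above 0 if WT 1, WT 3 or KO 3 was dropped) and Acod1 at -0.534 to 0.112 (above 0 if WT 1 or KO 2 was dropped). Nos2 in KO + AC against WT + AC ran from -0.0151 (KO + AC 1 dropped) to 0.244. For apoptotic cells in KO, Odc1 was at 0.0396 with DESeq2, 0.0396 with DESeq2 size factors, 0.0724 without KO libraries 1 and 2 and 0.50 with length and GC offsets, where it was called. Those offsets also gave Ass1 0.75 and 1.54, Sat1 0.96 and 0.96, and Odc1 0.61 in WT. The cause was not tested.

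Over all genes, 2045 calls without apoptotic cells became 940 with length and GC offsets, 3999 in the joint fit, 95 without KO libraries 1 and 2, and 312 to 4166 leaving out 1 library. The 1866 calls with apoptotic cells became 1239 with DESeq2, 157 in the joint fit and 1192 without KO + AC library 1. The 2132 interaction calls became 1043 without KO libraries 1 and 2 and 1129 to 4330 leaving out 1 library.

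Replicate numbers did not pair the libraries: same-numbered KO and WT libraries correlated at -0.235, -0.00854 and 0.192 without and 0.0583, -0.101 and -0.101 with apoptotic cells, and not every library correlated best with its own number. With the replicate block, 3, 6, 8, 7 and 5 members were called in place of 3, 5, 8, 7 and 4, with Slc7a2 gained in KO + AC (-0.13) and Acod1 in the interaction (0.58). Depth limits Nos2 and Arg2 most, with 0 to 1 and 4 to 20 counts per library without apoptotic cells, while Acod1 there had a coefficient of variation of 36.9% in WT and 40.9% in KO.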

Other observations

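Per kilobase of exon, Sat1 was 7.62 to 8.55 times as abundant as Odc1 over the WT libraries, 6.59 to 7.91 times in KO, 7.78 to 8.25 times in WT + AC and 9.25 to 10.1 times in KO + AC. The KO + AC libraries all lay above the other 9, a difference that was not tested. The ratio of Acod1 to Arg1 was 0.0151 to 0.0329 in WT and 0.0295 to 0.0597 in KO, and 27.1 to 32.7 in WT + AC and 47.4 to 48.0 in KO + AC. The 8 genes together held 0.0625 to 0.0731% of counts without and 0.301 to 0.361% with apoptotic cells.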
